A study of Neurospora crassa with 10 samples.

Results

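The long genes of Neurospora crassa, a filamentous fungus, were taken as the listed gene intervals of 5 kb or more. Of 9729 genes in the 4 deposited lists of genes by wild-type expression, 477 met this limit, or 4.90% of all genes and 13.0% of the summed gene length. The study followed newly incorporated histone H3 in germinated conidia by chromatin immunoprecipitation of a FLAG-tagged copy, driven by the light-induced vvd promoter (Pvvd::hH3-3xFLAG::his-3+). Its labels give 5 groups of 2 libraries, all with the tagged histone: strains deleted for the DNA methyltransferase gene (∆dim-2::hph), for the H3K9 methyltransferase gene (∆dim-5::bar), for a histone deacetylase gene (∆hda-1::hph) and for the HP1 gene (∆hpo::hph), and WT. The mating type is given as mat a, except in ∆dim-5 and ∆hpo, where the labels print a question mark. After 18 h in the dark at 32 °C, cultures had received 100 mM hydroxyurea for 3 h, which stops DNA replication, and then 465 nm light for 2 min. No genotype was compared, since the positions used hold no value of a single library, and read depth is unknown. The lists of genes and of H3K9me3 domains that were analysed describe the wild type, and no source used here tells which strain and culture the expression ranking came from.

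Fungal genes are compact, with short introns, so a long gene usually encodes a large protein. Large fungal proteins include the heavy chains of molecular motors, multi-domain biosynthetic enzymes such as fatty acid and polyketide synthases, and large signalling kinases. H3K9me3 is the histone mark of constitutive heterochromatin, which in this fungus covers AT-rich repeats, centromeres and chromosome ends and holds few genes.

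The files give positions and the name of the list only. They hold no expression value, no strand and no replicate, so each share below has a Wilson 95% interval and each median a binomial 95% interval, both for counting error only. Genes of one genome are not replicates and no test was made, so differences from other genes are descriptions. Whether the ranking was corrected for gene length is not given, and its part in the counts by list was not tested. The order of the 25-50% and 50-75% lists is not stated in the labels, and the lists are called by those names.

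Long genes were concentrated in the highest list and almost missing from the lowest. The highest list held 248 of the 477 long genes (52.0%, interval 47.5 to 56.4), against 25% of all genes. For the 50-75% list the number was 170 (35.6%, against 25% of all genes), and for the 25-50% list 50 (10.5%, against 25%). The lowest list held 9 (1.89%, interval 0.996 to 3.55), against 25% of all genes. Seen from the lists, 10.2% of highest-list genes were long. The share was 6.99% for 50-75% genes, 2.06% for 25-50% genes and 0.37% for lowest-list genes.

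The shares went on shifting above the limit. The highest list held 46.9% of the 273 genes of 5 to 6 kb (interval 41.1 to 52.8), 52.3% of the 149 genes of 6 to 8 kb (44.4 to 60.2) and 76.4% of the 55 genes of 8 kb or more (63.7 to 85.6). Under the limit it held 43.6% of the 629 genes of 4 to 5 kb and 3.44% of the 1106 genes under 1 kb. None of the 55 genes of 8 kb or more was in the lowest list, a count that allows a share of up to 6.53% by its Wilson interval. The lowest list held 81.8% of the genes under 1 kb.

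**Figure D1:**
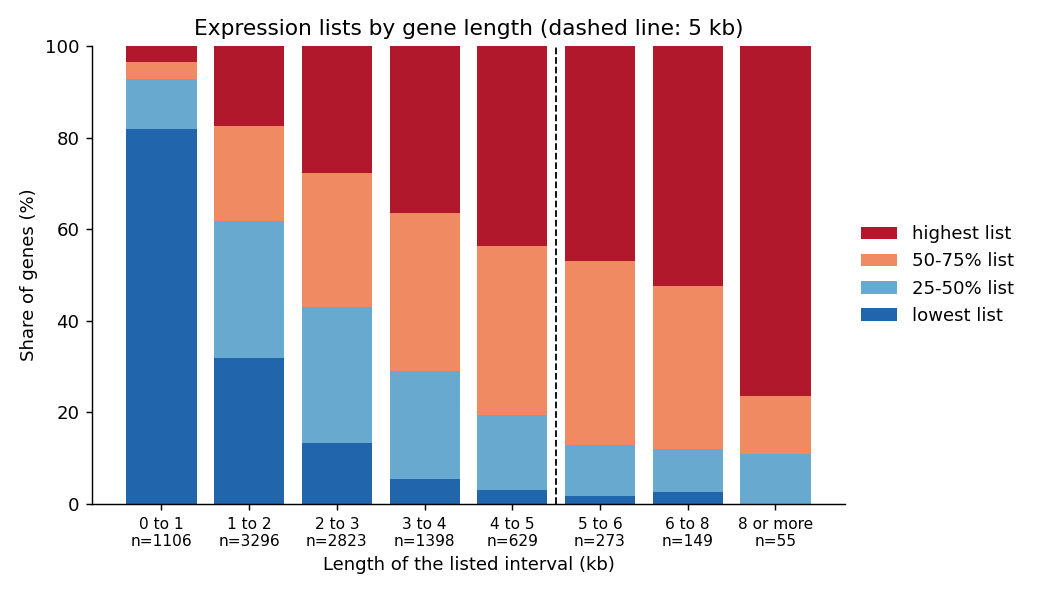
Share of genes in each expression list (y axis, %) by length of the listed interval (x axis, kb), with the number of genes under each bar. Right of the dashed line at 5 kb the highest list takes 46.9%, 52.3% and 76.4% of the genes and the lowest list 1.83%, 2.68% and 0%.

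Most long genes lay close to the limit. Their median length was 5738 bp (quartiles 5294 and 6810), 273 of 477 were under 6 kb, and 14 were 10 kb or more. By list, the median of long genes was 5937 bp (highest), 5634 bp (50-75%), 5615 bp (25-50%) and 5717 bp (lowest). The 5 kb limit that chose the genes holds these medians close together. The upper quartiles were 7153.5 bp (highest), 6429.5 bp (50-75%), 6637 bp (25-50%) and 6372 bp (lowest). The 3 members nearest the limit were NCU05271 (5010 bp, 50-75% list), NCU11324 (5011 bp, highest list) and NCU01912 (5012 bp in the listed interval, highest list). Just under it were NCU01768 (4999 bp), NCU10066 (4995 bp) and NCU02114 (4992 bp), all of the highest list.

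**Figure D2:**
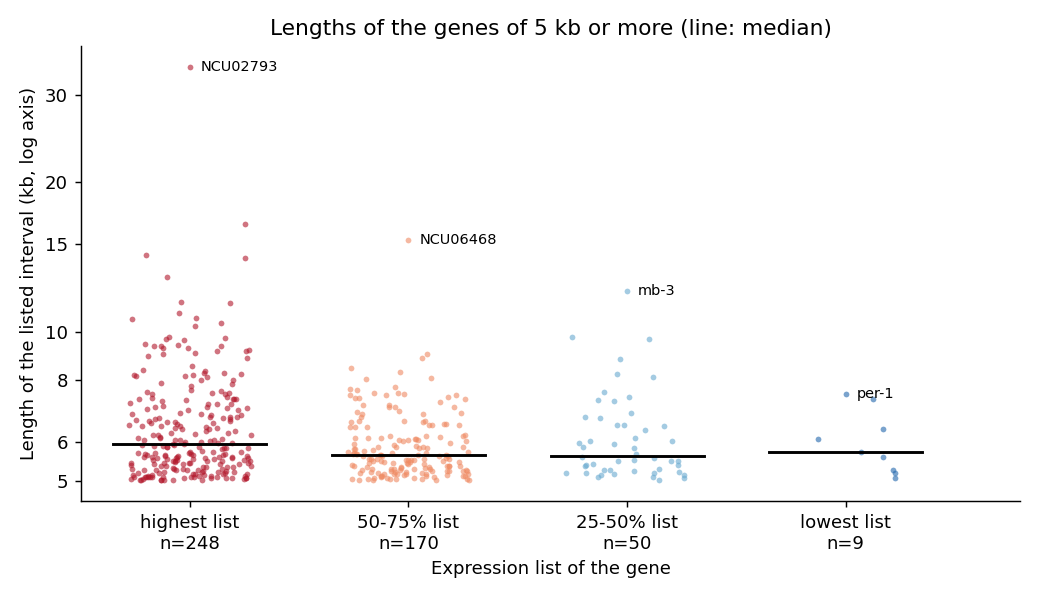
Length of each of the 477 long genes (y axis, kb, log axis) by expression list (x axis), 1 point per gene, with the median as a line and the longest gene of each list named. The medians lie between 5615 and 5937 bp, and the points above 10 kb are nearly all in the highest list, with NCU06468 and mb-3 as exceptions.

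The longest listed gene was NCU02793 on linkage group I (9117558 to 9151762), with 34205 bp. It was in the highest list, and both genes beside it were also in that list. One of them, NCU10282, is itself long with 8151 bp. NCU07119 on VI (78240 to 94699, 16460 bp) was also in the highest list, and its distance to the linkage group's end was 78.2 kb. NCU06468 on III (1510314 to 1525616, 15303 bp) was the longest gene outside the highest list, in the 50-75% list, as were both its neighbours.

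Next in length was a motor protein gene. ro-1, the gene for the heavy chain of cytoplasmic dynein, spanned 14276 bp on IV (4729512 to 4743787) and was in the highest list. stk-18, named as a serine/threonine kinase gene, spanned 12909 bp on V (3822706 to 3835614), again in the highest list. mb-3 on I (7658397 to 7670476, 12080 bp) was in the 25-50% list and pks-4, a polyketide synthase gene on VII (1080398 to 1091850, 11453 bp), in the highest. The remaining genes among the 10 longest, NCU08501 on II (14047 bp), NCU09637 on IV (11436 bp) and NCU05837 on VII (10885 bp), were in the highest list. With these, 8 of the 10 longest genes were highest-list genes.

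Long genes were named more often than others. A symbol other than the locus tag was given to 111 of the 477 (23.3%), against 11.5% of all genes. Of 61 genes in 10 lists of large or study-related products, 35 were long, of which 19 were highest-list, 9 were 50-75%, 5 were 25-50% and 2 were lowest-list genes. Most of these lists were made for large products and with earlier results known, so their counts of long genes describe the choice. Their counts by expression list are to be read beside the shares of all long genes, which were 52.0% highest, 35.6% 50-75%, 10.5% 25-50% and 1.89% lowest.

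Of the large biosynthetic enzyme genes, all 6 found were long, with 4 in the highest list and 2 in the 50-75% list, a split near that of all long genes. cel-1 and cel-2, which encode the subunits of cytosolic fatty acid synthase, lie side by side on IV (4422480 to 4439201) with 6650 bp and 7598 bp, 2474 bp apart, and both were in the highest list. en(am)-2, the glutamate synthase gene (II, 9132 bp), and pyr-3, which encodes the enzyme of the first steps of pyrimidine synthesis (IV, 6598 bp), were in the highest list. arg-3, a carbamoyl phosphate synthase gene of arginine synthesis (I, 5554 bp), and aro-1, the gene for the multi-step arom enzyme of aromatic amino acid synthesis (II, 5275 bp), were in the 50-75% list.

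Of 9 signalling genes found, 7 were long and 6 of these were in the highest list, which held 52.0% of all long genes. They were cr-1, which encodes adenylyl cyclase (I, 5564501 to 5573857, 9357 bp), the histidine kinase genes nik-2 (8331 bp), dcc-1 (6968 bp) and os-1 (6575 bp), and the MAP kinase kinase kinase genes mik-1 (7397 bp) and os-4 (5892 bp). The phytochrome gene phy-1 (6477 bp) was in the 50-75% list. Of the motor and polarity genes, 4 of 6 were long. They were ro-1, the myosin gene myo2 (8266 bp) and the formin gene bni1 (7135 bp) in the highest list, and the kinesin gene nkin-2 (6849 bp) in the 50-75% list.

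Polyketide synthase genes were spread over all 4 lists. All 7 genes found were long, from 7293 to 11453 bp, but only pks-4 was a highest-list gene. The 50-75% list had pks-1, the 25-50% list pks-3, pks-5 and pks-6, and the lowest list pks-2 and per-1. per-1, a polyketide synthase gene known for the colour of the fruiting body, was the longest gene of the lowest list, with 7496 bp on V (1714456 to 1721951). pks-2 on VI (4085380 to 4092690) was next with 7311 bp. These 7 genes thus held 2 of the 9 lowest-list members.

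Of 7 genes of RNA silencing and DNA methylation, 5 were long, with 3 in the 50-75% list, against 35.6% of all long genes. dim-2, the DNA methyltransferase gene deleted in the study (VII, 5687 bp), qde-1, the RNA-dependent RNA polymerase gene (III, 5540 bp), and the Dicer gene dcl-2 (II, 5730 bp) were in the 50-75% list. The second Dicer gene, dcl-1 (IV, 5467 bp), was in the highest list and the RecQ helicase gene qde-3 (I, 7390 bp) in the 25-50% list. The other study genes, dim-5 (1685 bp), hda-1 (3925 bp) and hpo (2384 bp), were under the limit.

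Of 6 DNA repair genes, 3 were long. They were mus-21, the ATM kinase gene (III, 9701 bp, highest list), mus-9, the ATR kinase gene (I, 8293 bp, 50-75% list), and upr-1, the gene for the catalytic subunit of DNA polymerase zeta (I, 6101 bp, 25-50% list). The cell wall and membrane transport lists held 1 long gene of 6 each and the clock list 1 of 5. The chitin synthase gene chs-5 (6778 bp), the calcium pump gene nca-2 (5950 bp) and the light sensor gene wc-1 (VII, 2767393 to 2773846, 6454 bp) were these genes, and all 3 were in the highest list.

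The 9 long genes of the lowest list were spread over 4 linkage groups, with 5 of them on VI. Those on VI were pks-2, NCU07116 (6372 bp), NCU03974 (5576 bp), NCU06011 (5178 bp) and NCU09793 (5070 bp). For comparison, VI held 59 of the 477 long genes and 988 of all 9729 genes. Without linkage group VI the share of long genes in the lowest list was 0.957%. The other lowest-list members were per-1 and NCU01105 (5261 bp) on V, NCU07894 (6060 bp) on IV and NCU16593 (5717 bp) on II. The 9 genes lay between 1.21 kb (NCU07116) and 95.05 kb (NCU01105) from the nearest H3K9me3 domain, with a median of 14.7 kb, and none overlapped one. NCU03974 lies in a segment of VI whose orientation differs between the sources, so its distance holds only for the order in the files.

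Long genes occurred on every linkage group at similar shares. They made up from 3.82% of the genes of VII (40 of 1047, interval 2.82 to 5.16) to 5.97% of those of VI (59 of 988, 4.66 to 7.63), with 4.90% on I (115 genes), 4.96% on II, 5.50% on III, 4.98% on IV and 4.37% on V. All of these intervals overlap. The highest list held from 45.0% of the long genes of VII to 59.1% of those of I.

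Along the linkage groups, a smaller share of long genes than of all genes lay near the ends. Within 200 kb of an end lay 23 long genes (4.82%, interval 3.23 to 7.13), against 7.21% of all genes, with ends taken as the outermost listed gene or domain. The median distance to the nearer end was 1580 kb for long genes (interval 1484 to 1690) and 1492 kb for all genes (1465 to 1515). This was not particular to long genes. Within 200 kb lay 5.70% of genes of 2 to 3 kb, 7.01% of 3 to 4 kb and 5.56% of 4 to 5 kb. Their median distances were 1579, 1623 and 1621 kb. Genes under 1 kb had 10.1% and 1051 kb. The 55 genes of 8 kb or more had 9.09% (interval 3.95 to 19.6) and 1333 kb. Within the highest list, long and shorter genes were alike in the share near an end. Of highest-list genes, 4.44% of the long ones (11 of 248) and 4.85% of those under 5 kb were within 200 kb. In the 50-75% list the shares were 3.53% of long genes and 5.48% of genes under 5 kb, and in the 25-50% list 8% of long genes and 8.06% of the others. In the lowest list the order was the other way, with 2 of 9 long genes (22.2%, interval 6.32 to 54.7) and 10.6% of genes under 5 kb. The long genes nearest to an end were NCU09637 (7.51 kb) and pks-5 (10.47 kb), which overlap each other at one end of IV, and NCU09492 at one end of II (12.4 kb).

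When each linkage group was divided into 5 equal parts in file order, the first part held 14.3% of long genes, against 18.4% of all genes. The fourth part held 24.9% of long genes, against 20.7% of all genes, and the outer part at the far end 18.4%, against 20.5%.

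Consecutive long genes were a median of 43.5 kb apart on III to 79.8 kb apart on VII. The widest stretches without a long gene were 659.6 kb on IV, after NCU04871 and before NCU07954 (569178 to 1228790), and 659 kb on VII, between NCU06065 and NCU02411 (1932679 to 2591724). The stretch on IV held 127 shorter genes and domains took up 41.0% of it, and that on VII held 90 with 63.4% in domains. On I the widest stretch was 440.3 kb between NCU09998 and NCU09807, with 23 genes and 89.1% of its length in domains. On III it was 363 kb with 81 genes and 32.8% in domains. Domains took up 61.2% of the widest stretch on II, 68.3% on V and, in file order, 94.4% on VI, which held 6 genes. Of all genes, 4.90% were long, and the part that the number of genes plays in these stretches was not tested. The domain share of whole linkage groups was not computed, and a link of these stretches with domains was not tested.

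Long genes stood slightly more often beside another long gene than other genes did. Of the 477, 61 (12.8%, interval 10.1 to 16.1) had a long neighbour, against 9.57% of all genes. The share was 10.8% at 3 to 4 kb (9.28 to 12.5), 10.7% at 4 to 5 kb (8.48 to 13.3) and 7.5% under 1 kb. Long genes formed 29 pairs and 1 run of 3, while 416 stood alone. The run was NCU02051, NCU02049 and NCU02048 on I (1543429 to 1564953), with 5425, 5557 and 5239 bp, from the highest, 25-50% and 50-75% lists. Of the 31 adjacent long pairs, 9 had both genes in the highest list, among them cel-1 and cel-2, and 10 had both genes in the same list. These counts are to be read beside the lists of all long genes, with 52.0% highest and 35.6% 50-75% genes. Over all genes, 32.9% of neighbour places were held by a gene of the same list. Whether adjacent long genes share a list more often was not tested. The neighbours of long genes were themselves a little longer, with a median of 2314 bp (interval 2238 to 2390), against 2130 bp for the neighbours of all genes (2109 to 2154). Intervals that overlap that of long genes were found at 3 to 4 kb (2253 bp, 2191 to 2293) and 4 to 5 kb (2214 bp, 2134 to 2303). Neighbours of genes under 1 kb had 1856 bp.

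More space separated long genes from their neighbours. The median gap to the nearer listed gene was 404 bp for long genes (interval 350 to 448, quartiles 106 and 824) and 274 bp for all genes (267 to 287, quartiles 16 and 712). The gap to the farther neighbour was 1856 bp (1642 to 2068) for long genes and 1267 bp (1230 to 1299) for all genes. Of long genes, 78 (16.4%) had a gap of 5 kb or more on at least 1 side, against 10.4% of all genes. This did not hold in every list, since in the 25-50% list 1 of 50 long genes (2%, interval 0.354 to 10.5) had such a gap, against 7.81% of genes under 5 kb. Strand is not given, so gaps before and after a gene could not be told apart.

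The median nearer gap was wider for long genes within each expression list, though in the lowest list the intervals overlap. In the highest list the nearer gap was 435.5 bp for long genes (interval 362 to 511) and 223 bp for genes under 5 kb (207 to 244). In the 50-75% list it was 340.5 bp (289 to 430) for long genes and 193 bp (174 to 207) for the others, and in the 25-50% list 413.5 bp (278 to 598) for long genes and 198 bp (182 to 210) for the others. In the lowest list the values were 784 bp for the 9 long genes and 615 bp for the others, and the interval for the long genes, from -218 to 1609 bp, holds the other median. Among all genes above 1 kb the gap was larger in each longer class, from 216 bp at 1 to 2 kb to 325 bp at 4 to 5 kb, 371 bp at 5 to 6 kb, 441 bp at 6 to 8 kb and 571 bp at 8 kb or more. Genes under 1 kb, of which 81.8% were lowest-list genes, had 580.5 bp.

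Gaps that hold a domain and gaps without one were also counted apart. A domain lay in the gap on at least 1 side of 39 long genes (8.18%), against 6.53% of all genes. In gaps without a domain the median was 778 bp beside long genes (interval 698 to 871) and 595 bp beside all genes (578 to 611). By length class it was 961 bp beside genes under 1 kb (904 to 1023) and 492.5 bp at 1 to 2 kb. It was 524 bp at 2 to 3 kb, 600.5 bp at 3 to 4 kb and 676 bp at 4 to 5 kb (607 to 759). The last interval overlaps that of long genes. The part of domains in the spacing was not tested.

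**Figure D3:**
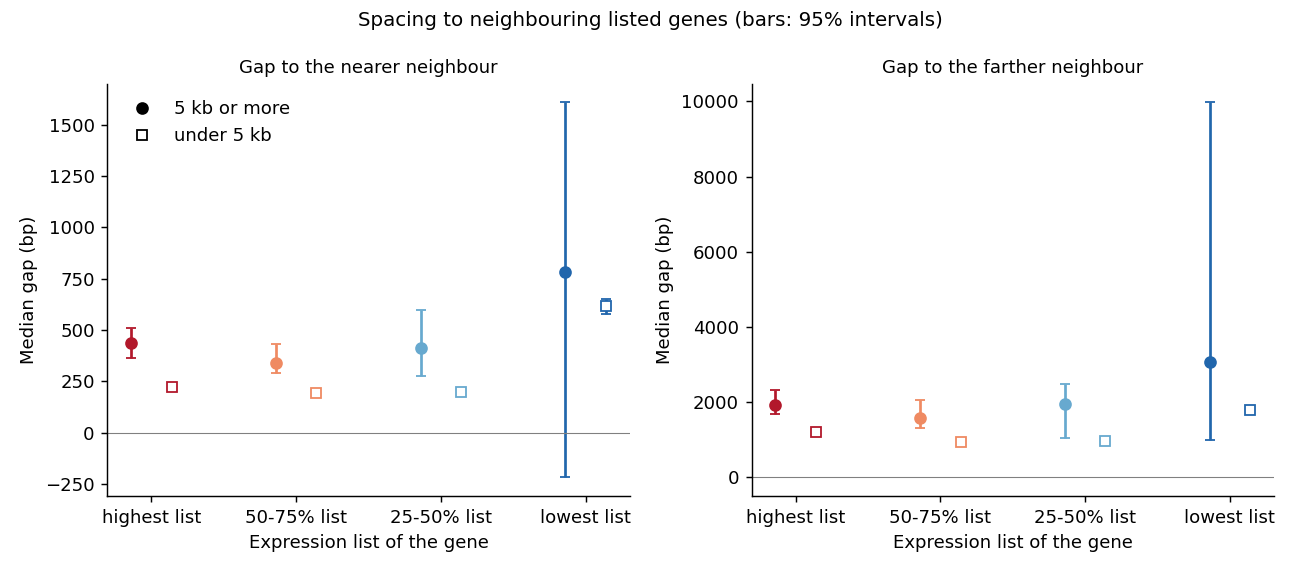
Median gap in bp (y axis) to the nearer neighbour (left) and the farther neighbour (right) for genes of 5 kb or more (filled circles) and under 5 kb (open squares), by expression list, with binomial 95% intervals. In the highest, 50-75% and 25-50% lists the long genes lie above the others and the intervals do not overlap.

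At the extremes, pks-1 on VI (3080312 to 3087794) had the widest summed gaps, with 310.7 kb to the gene on its left. That neighbour, NCU03846, lies at the edge of a segment of VI whose orientation differs between the files and the table of gene names, so the gap holds only for the order in the files. NCU08696 on II followed with 111.5 kb on its left, a gap nearly filled by a domain of 112.2 kb, and NCU09104 on I with 54.0 kb on its right. The smallest summed gaps were those of NCU09637 and pks-5 on IV and of NCU07954, also on IV. The 8089 bp of pks-5 lie completely inside NCU09637, and the gap of NCU07954 to the next gene is -3311 bp, with negative values for shared bases.

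Fewer long genes than all genes shared bases with a neighbour. An overlap was found for 87 long genes (18.2%, interval 15 to 22), against 22.8% of all genes. By length the share was 21.3% at 4 to 5 kb, 21.2% at 5 to 6 kb, 14.1% at 6 to 8 kb and 14.5% at 8 kb or more. Genes under 1 kb had 13.6%. Long genes had the smaller share in the highest (22.2% and 26.1%), 50-75% (15.3% and 29.3%) and 25-50% lists (8% and 27%). In the highest list the intervals overlap (17.5 to 27.8 and 24.3 to 28). They do not in the 50-75% (10.7 to 21.5 and 27.5 to 31.2) and 25-50% lists (3.15 to 18.8 and 25.2 to 28.8). In the lowest list 2 of 9 long genes (22.2%, interval 6.32 to 54.7) overlapped a neighbour, and 10.7% of genes under 5 kb. Other listed intervals covered at least 50% of the length of 7 long genes, or 1.47%, against 3.36% of all genes. Long genes held another listed interval completely in 14 cases (2.94%, against 0.719% of all genes). Both shares depend on gene length, by which the members were chosen. A longer interval has more room for another one and needs more shared bases to reach 50%. How reads from shared bases were assigned in the ranking is not given, so the lists of overlapping genes such as NCU09637 and pks-5 are uncertain.

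Neighbours of long genes came less often from the lowest list. Of 954 neighbour places, 177 (18.6%, interval 16.2 to 21.1) were held by lowest-list genes, against 25% for all genes. Highest-list genes held 272 (28.5%, 25.7 to 31.5), against 25%, the 50-75% list 236 (24.7%) and the 25-50% list 269 (28.2%). Long genes with lowest-list genes on both sides numbered 13 (2.73%, interval 1.6 to 4.61), against 9.45% of all genes. Both shares were also low for genes somewhat under the limit. At 4 to 5 kb, 21.1% of neighbour places were held by lowest-list genes (18.9 to 23.4), and 4.29% of genes had them on both sides (2.97 to 6.17). The values were 20.5% and 5.01% at 3 to 4 kb, and 41.2% and 23.4% under 1 kb.

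Within a list, however, long and shorter genes had similar neighbours. Among highest-list genes, 31.5% of the neighbours of long genes were in the highest list (interval 27.5 to 35.7), and so were 31.7% of the neighbours of genes under 5 kb (30.4 to 33.1). Lowest-list genes made up 19.2% of the neighbours of these long genes and 17.8% of those of the shorter ones. In the 50-75% list, highest-list genes made up 26.5% of the neighbours of long genes and 26.3% of those of genes under 5 kb. Genes of the lowest list were the exception. Their long members had 2 lowest-list neighbours in 18 places (11.1%, 3.10 to 32.8), while genes under 5 kb had 43.2% (41.8 to 44.6). The 2 such neighbours were NCU03585 beside per-1 and NCU16594 beside NCU16593, and no long gene of the lowest list lay between 2 lowest-list genes.

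**Figure D4:**
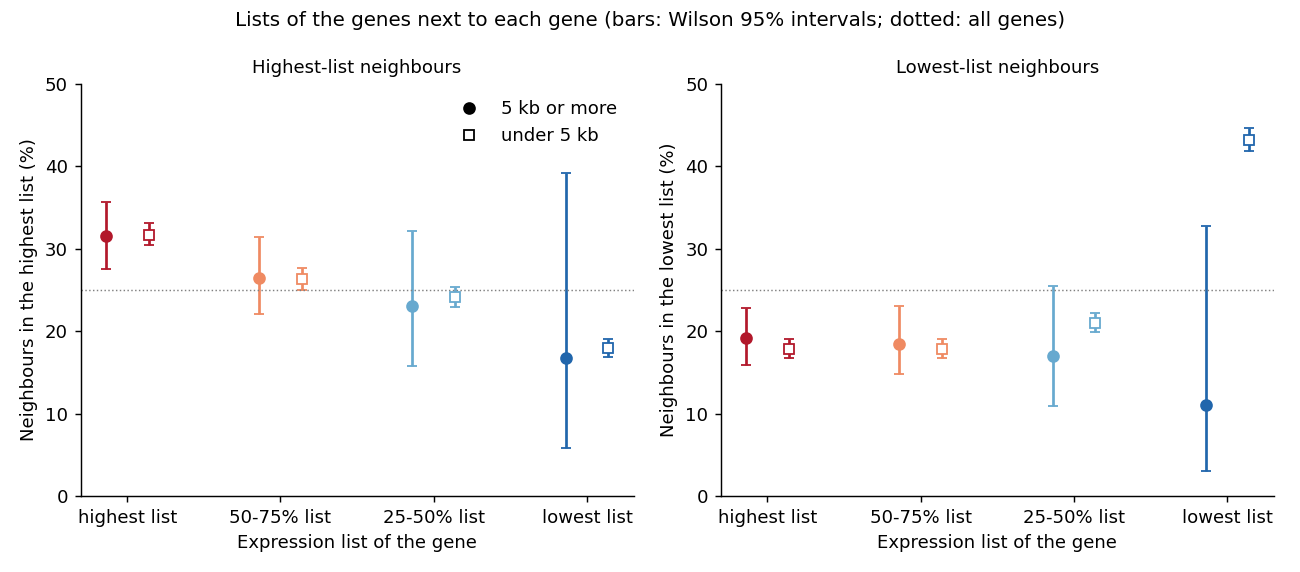
Share of neighbouring genes (y axis, %) in the highest list (left) and the lowest list (right), for genes of 5 kb or more (filled circles) and under 5 kb (open squares), by the gene's own expression list, with Wilson 95% intervals; the dotted line is the 25% of all genes. Circles and squares lie close together except in the lowest list, where 11.1% of the neighbours of long genes and 43.2% of those of the others were lowest-list genes.

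Long genes lay at similar distances from H3K9me3 domains as other genes. The median distance was 38.3 kb for long genes (interval 30.4 to 44.4) and 38.8 kb for all genes (37.6 to 40.1). It was 39.5 kb for long genes of the highest list (28.6 to 49.7) and 44.3 kb for highest-list genes under 5 kb (41.7 to 46.7). In the 50-75% list it was 41.6 kb for long genes and 41.0 kb for the others. In the 25-50% list it was 30.7 kb for long genes (20.6 to 45.9) and 38.9 kb for the others (36.7 to 41.3). In the lowest list it was 14.7 kb for the 9 long genes (6.246 to 82.59) and 32.9 kb for the others (30.6 to 34.9). The intervals overlap in each of the 4 lists.

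The share of long genes changed little with the distance to a domain. Genes that overlapped a domain were long in 12 of 211 cases (5.69%, interval 3.28 to 9.68). The share was 5.54% among genes under 5 kb from a domain, 5.19% at 5 to 20 kb, 4.31% at 20 to 50 kb (3.58 to 5.18), 4.88% at 50 to 100 kb and 5.00% at 100 kb or more, against 4.90% of all genes. Without an overlap, 52 long genes lay under 5 kb from a domain (10.9%, against 9.65% of all genes), and 203 had the nearest domain at 50 kb or more (42.6%, against 42.3%). By length, the share under 5 kb from a domain was 8.79% at 5 to 6 kb (5.98 to 12.7) and 12.1% at 6 to 8 kb (7.78 to 18.3). It was 18.2% at 8 kb or more (10 of 55 genes, 10.2 to 30.3), whose median distance was 39.2 kb (15.5 to 68.6). Among highest-list genes, 29 of 248 long ones (11.7%, 8.27 to 16.3) lay under 5 kb from a domain, and 7.92% of those under 5 kb in length (6.86 to 9.13).

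**Figure D5:**
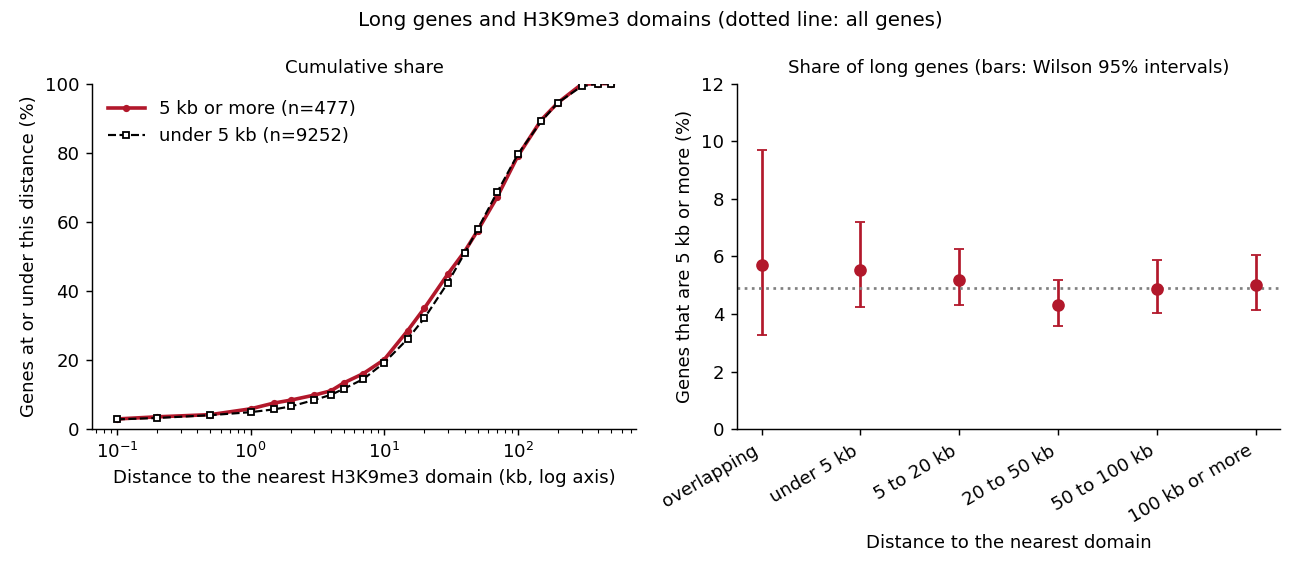
Left, cumulative share of genes (y axis, %) by distance to the nearest H3K9me3 domain (x axis, kb, log axis) for genes of 5 kb or more and under 5 kb. Right, share of genes that are 5 kb or more (y axis, %) by distance class, with Wilson 95% intervals and the 4.90% of all genes as a dotted line; the 2 curves nearly coincide and all intervals hold the dotted line.

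Of the long genes, 12 reached into a domain (2.52%, interval 1.44 to 4.35), against 2.17% of all genes. By list, they were 6 highest-list, 5 50-75% and 1 25-50% genes. In 10 of the 12 a domain covered 30.1% of the gene or less, and in 1 the midpoint lay inside a domain (0.210% of long genes, against 0.504% of all genes). Both measures depend on gene length, since the same shared bases are a smaller part of a longer gene. An overlap of 300 bp or more was found for 1.47% of long genes, against 1.13% of all genes.

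The gene with the most domain sequence was NCU09969 on VI (314113 to 320071, 25-50% list), whose 5959 bp lay completely inside a domain of 6.6 kb (314101 to 320700). NCU09968 beside it (309546 to 315476, highest list) shares bases with NCU09969 and was covered over 3176 bp (53.5%) by the same domain and by one of 1.8 kb inside the gene. These are the 2 long genes that domains covered over at least 50% of their length, and they overlap each other.

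At the edges of larger domains lay NCU08696 on II (3712644 to 3718148, 1657 bp or 30.1% covered, domain of 112.2 kb), NCU09104 on I (863464 to 872329, 829 bp or 9.35%, domain of 51 kb) and pks-1 (689 bp or 9.21%, domain of 126.6 kb). The overlap was 445 bp in NCU10009, 332 bp in NCU04264, 209 bp in NCU08267, 166 bp in NCU08487, 132 bp in crf1-1, 128 bp in NCU16848 and 9 bp in NCU09063. The last 5 of these overlaps are shorter than 1 step of the 300 bp grid on which 337 of the 346 domains lay. crf1-1, named as a chromatin remodelling factor gene, lies on VII (292669 to 298761, 50-75% list) beside a domain of 18.9 kb. Of the polyketide synthase genes, pks-1 overlapped a domain and pks-4 lay 0.697 kb from one, while pks-6 lay 292 kb away.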

How the data were processed

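The authors deposited 4 lists of gene intervals by wild-type expression (9729 genes) and 1 list of 346 H3K9me3 domains. The columns used, start and end in bp, hold positions. Per the submitters' processing notes, Bowtie2, deepTools, HOMER and SICER were used; their versions and settings, and the genome build, were not given in the sources used here. Starts were read as counting from 0 and are printed from 1; domain ends were read as the last base, and 10 empty rows were skipped.

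Names came from a RefSeq table for the NC12 assembly. Of all intervals, 9490 had the same position there, 238 on linkage group VI (1851685 to 2769626) the mirrored one, and 1 stayed unnamed. Of the 477 members, 456 had the same position and 21 the mirrored one. Coordinates are those of the files. No sequence is shown.

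Members were intervals of at least 5000 bp. Gaps run edge to edge between intervals in file coordinates, and are minus the shared bases where intervals overlap. A gene overlapped a domain from 1 bp. Python 3.11.15 with SciPy 1.17.1 gave Wilson 95% intervals and order-statistic intervals of medians; the interval code was checked on simulated data. The members, the 10 lists of genes by symbol and the alternatives were chosen with earlier results of these data known. Named genes were the 10 longest, the longest of each linkage group and list, those with most domain sequence, the widest and smallest gaps, the longest run, the genes beside the limit and list members; others were chosen after their values were seen. Lists by product description were not run.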

Additional observations from a re-analysis of the deposited data

How the results depend on the processing

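The 10 values were recomputed under alternative settings, some of which applied to only part of the values. This gave 131 results, of which 121 stayed inside the 95% interval of the value reported. Many settings left out a single linkage group and kept most of the same genes, so results inside the interval were likely by construction. With a limit of 4000 bp, 47.2% of long genes were in the highest list and 24.1% stood beside another long gene (21.1% of all genes); with 6000 bp the values were 58.8% and 6.86% (4.17% of all genes), and the nearer gap was 469.5 bp. The mean of both gaps had a median of 1258 bp, against 823 bp for all genes. Without linkage group VI, 0.957% of long genes were in the lowest list. With 100 kb in place of 200 kb, 2.52% of long genes were near an end, against 3.55% of all genes. With domains of at least 3000 bp the median distance to a domain was 54.4 kb, against 51.7 kb for all genes. The midpoint of 0.210% of long genes lay inside a domain. The cause of these changes was not tested beyond what each setting alters by construction. Long genes moved to the other side of the value of all genes in 5 of 14 alternatives for distance to a domain and in 2 of 15 for domain overlap, and in none for the other 8 values. Leaving out the mirrored segment of VI was added after seeing the data. No paired analysis was possible because the files hold no values per library. Depth is unknown, and the number of genes limits the precision, above all for the 9 long genes of the lowest list.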

Other observations

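Gene families by the stem of their symbols, chosen after the values were seen, differed in how many members were long, against 4.90% of all genes. Of 12 crf genes, named as chromatin remodelling factors, 8 were long (66.7%), with 4 in the highest list (crf2-1, crf3-1, crf6-1 and crf9-1) and 4 in the 50-75% list. Of 9 set genes, named for the SET domain of histone methyltransferases, 5 were long. set-3 and set-4 were in the highest list, set-1, the H3K4 methyltransferase gene, and set-8 in the 50-75% list and set-7, the H3K27 methyltransferase gene (6740 bp), in the 25-50% list. Of 53 stk kinase genes 11 were long (20.8%), 7 of them in the highest list. All 3 long prk genes of 9 were in that list. These counts by list are to be read beside the 52.0% of all long genes in the highest list. Of 79 gh genes, named as glycoside hydrolases, 2 were long (2.53%, near the share of all genes), gh18-6 and gh18-8, both in the 25-50% list. None of the 29 nuo genes of mitochondrial complex I was long, a count near what the 4.90% of all genes gives. All 29 were in the highest list, against 25% of all genes.

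The listed interval is not a measure of the protein. hH2Az, the gene for the small histone variant H2A.Z, spanned 5173 bp on II (1387651 to 1392823) in the highest list. Its gap to NCU05346 was -1956 bp and that to NCU05345 was -166 bp, with negative values for shared bases.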
